A study of Arabidopsis thaliana with 12 samples.

Results

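Untreated seedlings of an Arabidopsis thaliana pot1b mutant were compared with untreated wild type (WT, Col-0) seedlings. Every library labelled pot1b mock or WT mock entered the comparison, which used 6 of the 12 libraries of the series, 3 in each group. The features compared were the nuclear genes, and 19394 of the 32548 listed had enough counts to be tested. The other 6 libraries came from the same genotypes after treatment with Zeocin, which is known to cut DNA strands, and served for the spread between replicates and for a comparison of the genotypes in treated seedlings. Seedlings of all groups were 6 days old and had grown on MS medium, and the treatment was 20 µM Zeocin or mock for 6 h. Whole seedlings were used, so a change in RNA can come from fewer cells of a type or from less RNA per cell, and these cannot be told apart. The labels name neither the pot1b allele nor the origin of the replicates. The p-values therefore measure only the spread between these libraries, which may be technical.

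POT1b belongs to the POT1 family of proteins, known in other eukaryotes for binding the single-stranded ends of chromosomes. Arabidopsis carries several POT1 paralogues, of which POT1a is known to work with telomerase. The title of the study places POT1b in the balance of reactive oxygen species (ROS), the short-lived oxidants that plants make in chloroplasts, mitochondria and peroxisomes and, through NADPH oxidases, at the cell surface. In plants ROS are both damaging by-products and signals, and genes for defence, for mitochondrial retrograde signalling and for detoxification are known to respond to them.

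The 6 mock libraries held 9607269 to 24587168 counts, of which 3961261 to 10490315 fell on nuclear genes. Chloroplast genes took 55.42% to 57.73% of the counts, and the share of psbA, a chloroplast photosystem gene, was 29.49% to 31.78% in WT mock and 33.01% to 36.88% in pot1b mock. Mitochondrial genes took 0.738% to 0.751% in WT mock and 0.546% to 0.604% in pot1b mock. The psbA and mitochondrial shares did not overlap between genotypes, while the share of all chloroplast genes did, and their part in the nuclear differences was not tested. Levels below are in CPM, which are counts relative to the library total after trimmed-mean (TMM) correction. All log2 values are pot1b minus WT, and a gene is said to rise or fall only when its Benjamini-Hochberg adjusted p in edgeR's quasi-likelihood test was under 0.05.

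POT1B itself is a weak check of the labels. Its level was 3.13, 2.95 and 3.23 CPM in WT mock replicates 1 to 3 and 1.43, 1.09 and 2.82 CPM in pot1b mock replicates 1 to 3. All mutant libraries lay below all WT libraries, yet the library labelled pot1b mock replicate 3 lay close to them. The log2 difference was -0.83 (SE 0.51, edgeR adjusted p = 0.36). By two-sided exact permutation of the 6 libraries p was 0.1, the smallest value the design can give. POT1B overlaps NHL3 and the strand setting of the counting is not given in the sources used here, so its counts are uncertain. Without that mock library, chosen for its POT1B level, the difference was -1.27 and did not pass the test (edgeR adjusted p = 0.224), and without both pot1b replicates numbered 3 it was -1.26 (edgeR adjusted p = 0.0124). Each mock library was also placed on 925 genes called between the genotypes in the Zeocin libraries alone, on a log2(CPM + 0.1) scale where 0 is the WT mock mean and 1 is the genotype difference after Zeocin. The median position was 0.77, 0.73 and 0.75 in pot1b mock replicates 1 to 3 and 0.01, -0.02 and 0.0 in WT mock replicates 1 to 3. Over these 925 genes replicate 3 thus lay with the other mutant libraries.

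Of the tested genes, 1416 rose in untreated pot1b (7.3%) and 1124 fell (5.8%), together 13.1%. Most differences were small. The median log2 change of genes that rose was 0.58 and of genes that fell -0.44, while the median over all tested genes was 0.0. At least 2-fold changes were made by 266 genes upward (1.37%) and 75 downward (0.387%). The levels of the 3 WT and the 3 mutant libraries did not overlap in 6738 tested genes (34.7%) and in 2521 of the 2540 called genes (99.3%). Genes that overlap another listed gene made up 785 of the called genes (30.9%) and 35.9% of those tested. The first principal component of the mock libraries held 57.5% of the variance and separated the genotypes. The count of genes that fell depended on single libraries, at 645 without WT mock replicate 1, 741 without WT mock replicate 2, and 745, 675 and 706 without pot1b mock replicates 1, 2 and 3, while it was 1826 without WT Zeocin replicate 1. The count that rose was 938 without WT mock replicate 1. In the gene lists described next, counts of 2 or fewer members moved by at most 2 when any 1 library was left out, with 1 exception named below.

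**Figure D1:**
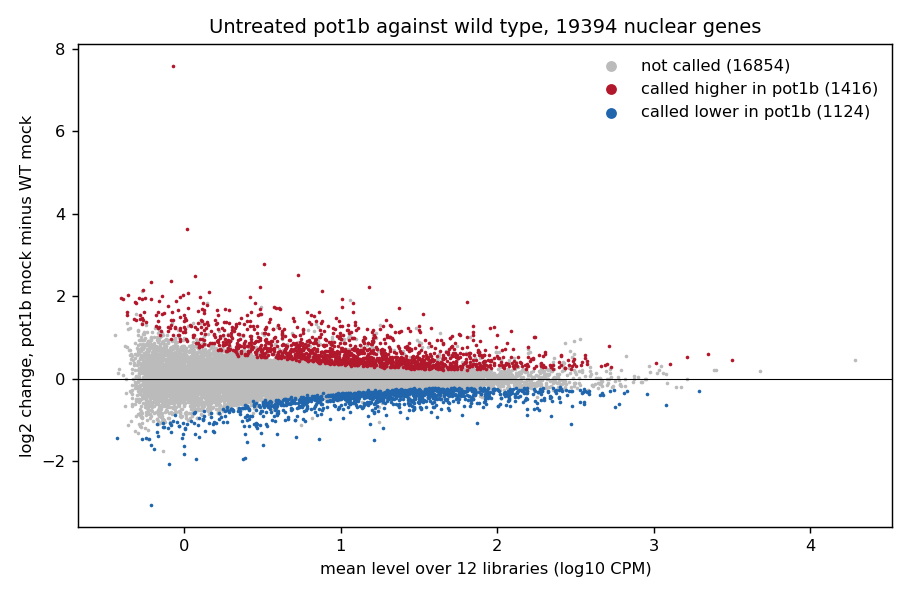
Log2 difference between pot1b mock and WT mock (vertical axis) against the mean level over the 12 libraries (horizontal axis, log10 CPM) for 19394 nuclear genes, with the 1416 genes that rose in red, the 1124 that fell in blue and the others in grey. The red points reach further from 0 than the blue ones, and 266 genes were at least 2-fold higher against 75 at least 2-fold lower.

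The largest difference was that of AT3G29633, an uncharacterised protein gene. It had no count in any WT mock library and 69 counts over the pot1b mock libraries, at 1.13, 1.87 and 1.59 CPM, which is at least 27.3-fold higher against a floor of 3 counts over the WT group. AT4G28140, a gene for an AP2/ERF-type DNA-binding protein, rose by a log2 of 2.07 (SE 0.29) from a WT mean of well under 1 CPM. AT5G11410, a protein kinase gene, rose by 2.01 (SE 0.39), and LBD11, a LOB-domain transcription factor, by 1.97 (SE 0.35). On the other side, the long non-coding RNA AT3G05955 stood at 1.07, 1.26 and 1.57 CPM in WT mock and at 0.246, 0.0781 and 0.0723 CPM in pot1b mock, a log2 of -3.06 (SE 0.44). The extensin-like gene AT3G54580 fell by 2.07 (SE 0.34), AT5G02580, annotated as an argininosuccinate lyase, by 1.96 (SE 0.33) and P1R3, of unknown product, by 1.61 (SE 0.19). These genes were picked among called genes whose groups of 3 libraries did not overlap, so their freedom from overlap is no added support. They kept their calls under every alternative that tested them.

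Genes of the oxidative and mitochondrial stress response made up the list with the largest share of rising members among those drawn in the plot of gene lists. A larger share rose among lipid-transfer genes of the AZI1 and EARLI1 type, a list not drawn there, with 6 of 10 tested. Of 51 tested members of the stress list 24 rose and 2 fell, with a median log2 of 0.39, against 7.3% and 5.8% of all tested genes. The list holds genes known to follow mitochondrial dysfunction, ROS or hydrogen peroxide. OM66, an AAA-type ATPase of the outer mitochondrial membrane and a marker of mitochondrial retrograde signalling, stood at 2.89, 2.21 and 2.99 CPM in WT mock and at 8.32, 7.18 and 6.5 CPM in pot1b mock. Its lowest mutant library was above its highest WT library, with a log2 of 1.41 (SE 0.16, edgeR adjusted p = 1.7e-06). AOX1A, the alternative oxidase that lets electrons bypass part of the respiratory chain, was at 14.4, 14.2 and 14.02 CPM in WT mock and at 21.2, 21.2 and 20.4 CPM in pot1b mock. The libraries of each genotype lay close together, and the log2 of 0.56 had an SE of 0.09. Its partner NDB2, an alternative NADH dehydrogenase, rose by 0.67 (SE 0.14), and the mitochondrial dicarboxylate carrier DIC2 by 0.74 (SE 0.13).

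Zinc-finger regulators were among the rising members of the same list. ZAT12, a C2H2 zinc-finger factor known to respond to ROS and to many stresses, was at 5.19, 5.9 and 6.18 CPM in WT mock and at 10.8, 11.6 and 11.0 CPM in pot1b mock, without overlap. Its log2 was 0.95 (SE 0.12, edgeR adjusted p = 1.1e-05). ZAT11, a close relative, rose from 1.11, 1.37 and 1.52 CPM to 3.15, 3.28 and 2.6 CPM, a log2 of 1.19 (SE 0.21). The zinc-finger repressor AZF1 rose by 1.03 (SE 0.19).

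The promoters of OM66, ZAT11 and AOX1A are shown as examples of rising stress genes that hold the letters of the W box, the site that WRKY factors are known to bind. They were picked among the genes with a match, and ZAT12 and NDB2 had none. The sequences are the 250 bases before the annotated start, 5′ to 3′ on the gene's strand, from RefSeq's TAIR10.1 assembly. OM66 is at chr3:18929276-18929525, ZAT11 at chr2:15706035-15706284 and AOX1A at chr3:7906271-7906520, all on the plus strand. Capitals mark TTGACC or TTGACT, or their reverse complements GGTCAA and AGTCAA.
OM66: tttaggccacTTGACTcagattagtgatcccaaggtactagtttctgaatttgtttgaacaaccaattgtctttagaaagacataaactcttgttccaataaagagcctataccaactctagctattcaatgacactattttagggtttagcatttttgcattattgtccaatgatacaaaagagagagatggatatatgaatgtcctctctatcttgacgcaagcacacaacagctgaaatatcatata
ZAT11: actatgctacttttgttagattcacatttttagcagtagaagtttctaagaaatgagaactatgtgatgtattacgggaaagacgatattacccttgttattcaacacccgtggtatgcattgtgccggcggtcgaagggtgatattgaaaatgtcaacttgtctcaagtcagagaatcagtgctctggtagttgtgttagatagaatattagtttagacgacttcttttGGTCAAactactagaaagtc
AOX1A: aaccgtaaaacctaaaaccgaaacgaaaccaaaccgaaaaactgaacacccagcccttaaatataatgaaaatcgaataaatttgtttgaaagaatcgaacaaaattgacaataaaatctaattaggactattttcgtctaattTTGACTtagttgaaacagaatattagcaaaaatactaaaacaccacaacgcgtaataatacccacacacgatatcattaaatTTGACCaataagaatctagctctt
AOX1A thus holds 2 matches and the others shown 1 each. Over windows from 250 bases before to 50 after the start, and on either strand, a W box occurred in 17 of the 24 rising genes of the list (70.8%), in 30 of its 51 tested members (58.8%) and in 32.4% of 27443 promoters. The share varied between lists. A W box occurred in none of the 8 rising cysteine-rich receptor-like kinases, against 17 of 31 tested (54.8%). It occurred in 1 of the 12 rising heat shock and chaperone genes (8.3%) and in 5 of the 13 rising WRKY genes (38.5%). Rising jasmonate genes held it in 8 of 15 (53.3%) and rising glutathione transferases in 6 of 11 (54.5%). The shares were 3 of 4 rising hypoxia genes (75.0%) and 4 of 5 rising ethylene genes (80.0%). Of tested TIR-type immune receptors 55.4% held one. Among all genes, the share was 41.7% of 1368 promoters of genes that rose, 46.2% of 251 of those at least 2-fold higher and 28.8% of 1087 of those that fell. A match is a description of letters and not a bound site.

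Genes that scavenge ROS moved in both directions. Of 49 tested members 7 rose and 5 fell, with a median of 0.01. CAT3, a peroxisomal catalase that breaks down hydrogen peroxide, stood at 687, 679 and 739 CPM in WT mock and at 438, 421 and 457 CPM in pot1b mock. The groups did not overlap, and the log2 was -0.68 (SE 0.08, edgeR adjusted p = 2.2e-06). The sister catalases CAT1 and CAT2 did not pass the test, at -0.12 (SE 0.07, edgeR adjusted p = 0.34) and 0.12 (SE 0.08, edgeR adjusted p = 0.34), though CAT2 overlaps another gene. Both steps of glutathione synthesis fell, GSH1 by 0.43 (SE 0.07) and GSH2 by 0.50 (SE 0.07). The number of scavenging genes that rose rested on single libraries, at 1 without WT mock replicate 2, pot1b mock replicate 2 or pot1b mock replicate 3, at 2 without WT mock replicate 1, at 3 without WT mock replicate 3 and at 4 without replicate 1 of pot1b mock or of pot1b Zeocin.

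Among the enzymes that make ROS at the cell surface, 2 of 5 tested NADPH oxidases rose. RBOHD, the oxidase known for the oxidative burst in immunity, was at 14.6, 15.5 and 14.02 CPM in WT mock and at 21.0, 22.8 and 21.2 CPM in pot1b mock. No mutant library reached down to the WT range, and the log2 was 0.56 (SE 0.09). RBOHC, known from root hairs, rose by 0.73 (SE 0.16). The 48 tested class III peroxidases, apoplastic enzymes that can make or use hydrogen peroxide, held 9 that rose and 6 that fell. Glutathione transferases, which attach glutathione to reactive compounds, held 11 that rose and 5 that fell of 33 tested. Those that fell were 3 without WT mock replicate 1 or pot1b mock replicate 3. GSTU8 rose by 0.97 (SE 0.15), and GSTU17, which overlaps another gene, by 1.85 (SE 0.10).

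Immune receptors differed by family. Of 74 tested TIR-type immune receptors, which detect pathogen proteins inside the cell, 17 rose and 9 fell with a median of 0.18, against 7.3% rising and 5.8% falling over all tested genes. The number that fell was 5, 4 and 5 without WT mock replicates 1, 2 and 3, 4 without pot1b mock replicate 1 or 3 and 4 with the offset for transcript length. Of 31 tested cysteine-rich receptor-like kinases, many of which are known to respond to salicylic acid and ROS, 8 rose and none fell, with a median of 0.32. CRK13 went from 16.8, 19.2 and 16.3 CPM in WT mock to 52.4, 52.6 and 49.9 CPM in pot1b mock. This change, about the same in each mutant library, had a log2 of 1.58 (SE 0.09, edgeR adjusted p = 7.1e-11). CRK12 rose by 1.41 (SE 0.21) and CRK21 by 0.98 (SE 0.11). Of 52 tested WRKY factors, regulators of defence and senescence, 13 rose and 1 fell. WRKY46 rose by 1.72 (SE 0.26), WRKY48 by 1.31 (SE 0.13) and WRKY6 by 0.74 (SE 0.08). MYB15, a regulator of lignin made during defence, rose by 1.62 (SE 0.18), and ERF53 by 1.65 (SE 0.26). The kinase MPK3, which acts below immune receptors and overlaps another gene, rose by 0.51 (SE 0.07).

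Jasmonate genes were among the groups with many rising members, 15 of 33 tested with 1 that fell and a median of 0.30. The rising members included genes of synthesis from plastid lipids, of breakdown and of response. LOX3 and LOX4, the lipoxygenases that start the route, rose by 0.88 (SE 0.12) and 0.75 (SE 0.16), and LOX2 by 0.79 (SE 0.12). AOC3, an allene oxide cyclase, stood at 9.47, 11.1 and 10.2 CPM in WT mock and at 24.3, 26.4 and 22.8 CPM in pot1b mock. Its libraries did not overlap between genotypes, and the log2 was 1.27 (SE 0.13). OPR3, which acts after the cyclases, did not pass the test at 0.05 (edgeR adjusted p = 0.79). JAZ10, a hormone-induced repressor whose gene overlaps another gene, rose by 0.90. The response genes TAT3, CORI3 and VSP1 rose by 2.16, 1.11 and 0.97 from low levels, but TAT3 lost its call without pot1b mock replicate 3, and CORI3 and VSP1 lost theirs under 10 and 9 alternatives, among them DESeq2. Among 20 tested genes of salicylic acid and immunity 8 rose and none fell, and their median was 0.33. Of defence genes, PBS3 rose by a log2 of 3.5 to 3.88 over the alternatives and AIG1 by 2.53 to 2.92. CBP60G rose by 1.22 to 1.42 over them and ICS1 by 1.08 to 1.38.

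Phenylpropanoid and wall genes that passed the test mostly rose. Of 55 tested members of the cell wall list, which includes the route to lignin, 23 rose and 2 fell, with a median of 0.23. PAL1, the phenylalanine ammonia-lyase that opens the route, was at 60.6, 63.5 and 64.3 CPM in WT mock and at 148, 152 and 152 CPM in pot1b mock. The mutant libraries lay far above the WT libraries, with a log2 of 1.26 (SE 0.07, edgeR adjusted p = 7.1e-11). The next enzyme, C4H, was at 182, 175 and 189 CPM in WT mock and at 277, 268 and 255 CPM in pot1b mock, a log2 of 0.55 (SE 0.08). Further along, HCT rose by 0.62 (SE 0.07), CCoAOMT1 by 0.55 (SE 0.07), FAH1 by 0.94 (SE 0.11), OMT1 by 0.56 (SE 0.07) and CAD5 by 0.44 (SE 0.09). PAL2 rose by 0.63 (SE 0.08) and 4CL2 by 0.87 (SE 0.19). QUA2, which acts in pectin synthesis, rose by 0.46 (SE 0.07). Of surface lipids, the fatty acid elongases KCS1, KCS3 and KCS8 rose by 0.57 (SE 0.07), 0.80 (SE 0.10) and 0.64 (SE 0.08).

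Some chaperone genes of the cytosol and of the endoplasmic reticulum (ER) rose, while most did not pass the test. Of 34 tested heat shock and chaperone genes 12 rose and none fell, with a median of 0.25, and 7 rose when genes that overlap another were left out. Of 26 tested genes of ER protein folding 10 rose and none fell, with a median of 0.24. BIP3, the stress-induced ER form of the HSP70 chaperone BiP, stood at 0.396, 0.105 and 0.523 CPM in WT mock and at 2.02, 1.87 and 2.31 CPM in pot1b mock. Low as it was, it did not overlap between genotypes, and its log2 was 2.38 (SE 0.40, edgeR adjusted p = 0.00022). NAC062, a membrane-tethered factor of the unfolded protein response, went from 19.4, 18.1 and 17.2 CPM to 25.6, 25.7 and 27.5 CPM, a log2 of 0.53 (SE 0.08). Both kept their calls under every alternative that tested them. The ER count was less firm, at 4 without WT mock replicate 1, 5 without WT mock replicate 3 or pot1b mock replicate 1, 6 without pot1b mock replicate 3 and 3 with no scaling beyond library totals.

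The promoters of BIP3 and NAC062 are shown because the letters CACGTG (G box) recurred in this list. BIP3 is at chr1:2931851-2932100 and NAC062 at chr3:18364960-18365209, both on the minus strand of TAIR10.1 and printed as before, with CACGTG in capitals.
BIP3: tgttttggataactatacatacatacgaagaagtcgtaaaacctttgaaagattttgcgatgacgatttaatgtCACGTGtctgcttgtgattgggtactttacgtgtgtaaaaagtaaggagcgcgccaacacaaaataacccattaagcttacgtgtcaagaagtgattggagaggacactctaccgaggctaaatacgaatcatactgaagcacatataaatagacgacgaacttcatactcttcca
NAC062: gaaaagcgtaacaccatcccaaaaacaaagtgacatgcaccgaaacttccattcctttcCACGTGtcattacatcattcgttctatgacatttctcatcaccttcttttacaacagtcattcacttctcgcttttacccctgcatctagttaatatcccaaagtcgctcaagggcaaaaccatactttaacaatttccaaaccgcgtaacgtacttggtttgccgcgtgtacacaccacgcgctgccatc
Each holds 1 match. CACGTG, which reads the same on both strands, occurred in 7 of the 10 rising ER genes (70.0%), in 11 of the 26 tested (42.3%) and in 7.7% of all promoters. It also occurred in 6 of the 12 rising genes of abscisic acid, drought and cold and in 12 of the 50 tested (24.0%).

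Abscisic acid, drought and cold genes held 12 that rose and 4 that fell among 50 tested, with a median of 0.14. The count that rose was 7 without WT mock replicate 3. Those that fell numbered 0 without WT mock replicate 1 or pot1b mock replicate 3, 1 without WT mock replicate 3 and 2 without WT mock replicate 2 or pot1b mock replicate 2. COR15A, a chloroplast protein that protects membranes in freezing, stood at 1.58, 1.47 and 1.76 CPM in WT mock and at 4.58, 4.84 and 5.28 CPM in pot1b mock. Its groups did not overlap, and the log2 was 1.58 (SE 0.17, edgeR adjusted p = 6.8e-07). KIN1, another cold-regulated gene, rose by 0.66 (SE 0.15).

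Nutrient transporters were among the genes that rose. Of 28 tested nitrate genes 9 rose and 2 fell, and the number that fell was 1 without WT mock replicate 1, WT mock replicate 2 or pot1b mock replicate 3 and 6 without WT Zeocin replicate 1. NRT2.1, a high-affinity nitrate transporter, was at 2.73, 3.37 and 2.42 CPM in WT mock and at 6.11, 6.4 and 5.35 CPM in pot1b mock, a log2 of 1.11 (SE 0.17). Its partner protein NRT3.1 rose by 0.55 (SE 0.08), and NRT1.7, which moves nitrate out of old leaves, by 0.77 (SE 0.08). Of 25 tested phosphate starvation genes 7 rose and 3 fell. PHT1;1, a phosphate uptake transporter, went from 20.4, 21.1 and 19.3 CPM to 37.6, 36.6 and 36.5 CPM without overlap, a log2 of 0.87 (SE 0.10). PHF1, which helps such transporters reach the plasma membrane, rose by 0.89 (SE 0.12). PHO1, which loads phosphate into the xylem, moved the other way, from 46.7, 45.2 and 44.3 CPM to 26.1, 29.4 and 29.4 CPM, a log2 of -0.68 (SE 0.09).

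Nuclear photosynthesis genes also leaned upward, 18 of 54 tested rising and 1 falling with a median of 0.26. RBCS1A, a small subunit of Rubisco, was at 1652, 1871 and 1979 CPM in WT mock and at 2394, 3052 and 2891 CPM in pot1b mock, a log2 of 0.60 (SE 0.09). The light-harvesting gene LHCB1.1 rose by 0.54 (SE 0.08). The number that rose was 11 without WT mock replicate 1 and 34 without WT Zeocin replicate 1, and the 1 that fell lost its call when any 1 mock library was left out.

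**Figure D2:**
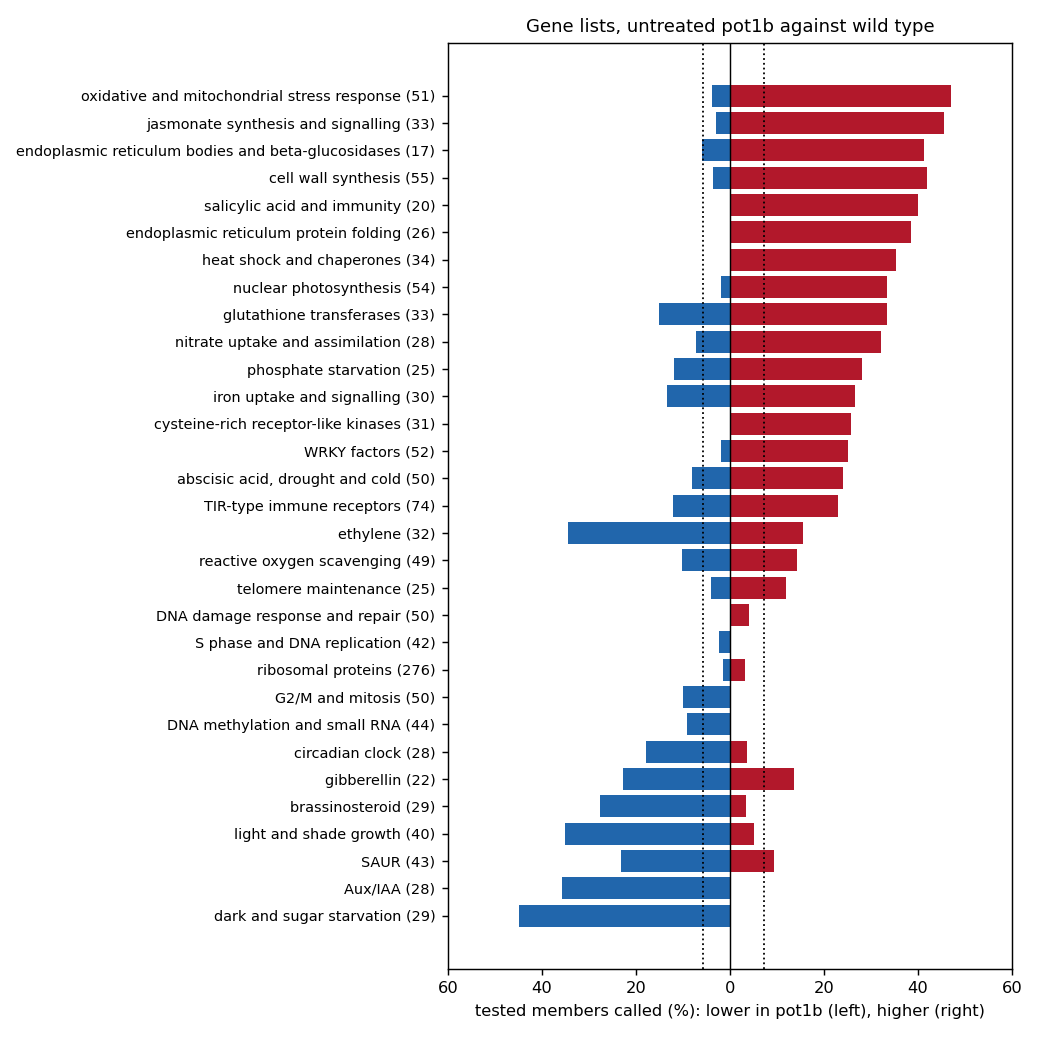
Share of tested members that fell (blue, drawn to the left) or rose (red, to the right) in untreated pot1b for 31 gene lists, with the number tested in brackets and dotted lines at 5.8% and 7.3%, the shares over all tested genes. Oxidative stress, jasmonate, cell wall and chaperone lists extend to the right, and starvation, Aux/IAA, light and brassinosteroid lists extend to the left.

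Genes of light-controlled and shade growth fell more often than they rose, with 14 of 40 tested members falling and 2 rising (median -0.18). PHYB, the red-light receptor that holds back stem growth, stood at 34.8, 36.7 and 32.1 CPM in WT mock and at 19.8, 22.3 and 19.3 CPM in pot1b mock. Every mutant library was below every WT library, with a log2 of -0.75 (SE 0.09, edgeR adjusted p = 4.8e-06). PHYA, the far-red receptor, fell by 0.52 (SE 0.08). The shade-induced homeodomain gene HB-2 (ATHB-2) was at 7.01, 6.53 and 5.51 CPM in WT mock and at 2.66, 2.81 and 1.95 CPM in pot1b mock, a log2 of -1.35 (SE 0.19). Its relatives HAT1 and HAT2 fell by 0.81 (SE 0.09) and 0.70 (SE 0.08), and the shade-response regulator PAR1 by 0.82 (SE 0.14). The number of falling light genes was 9 without WT mock replicate 1, WT mock replicate 2 or pot1b mock replicate 3.

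Auxin response genes that passed the test mostly fell. Aux/IAA proteins are auxin-induced repressors of the auxin response, and 10 of 28 tested fell while none rose (median -0.31). IAA2 was at 156, 154 and 146 CPM in WT mock and at 106, 91.3 and 94.8 CPM in pot1b mock, a log2 of -0.64 (SE 0.08, edgeR adjusted p = 4.6e-06). IAA30, a low-level member, went from 2.02, 1.26 and 1.9 CPM to 0.542, 0.703 and 0.506 CPM, a log2 of -1.64 (SE 0.28). Neither gene overlapped between genotypes. Of 7 tested GH3 genes, which encode enzymes that join auxin or jasmonate to amino acids, 4 fell and 1 rose, with GH3.2, GH3.3 and WES1 falling by 0.66 (SE 0.07), 0.68 (SE 0.08) and 0.51 (SE 0.07). Of 43 tested SAUR genes, small auxin-induced growth genes, 10 fell and 4 rose (median -0.29), and the number that rose was 2 without pot1b mock replicate 3. Of 25 tested XTH genes, which encode enzymes that cut and rejoin wall xyloglucan, 6 fell and 1 rose.

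Brassinosteroid and gibberellin genes that passed the test mostly fell. Of 29 brassinosteroid genes tested 8 fell and 1 rose, the latter not called without WT mock replicate 2 or 3 or pot1b mock replicate 1 or 2. The receptor BRI1 was at 65.0, 71.5 and 68.7 CPM in WT mock and at 46.4, 49.7 and 48.6 CPM in pot1b mock, a log2 of -0.50 (SE 0.07). BEE1, a growth-promoting factor induced by the hormone, fell by 0.69 (SE 0.11), and PRE6 by 0.82 (SE 0.19). GAI, a DELLA repressor of gibberellin responses, went from 35.3, 39.7 and 34.7 CPM to 18.7, 24.0 and 22.3 CPM, a log2 of -0.76 (SE 0.10). Of 22 gibberellin genes tested 5 fell and 3 rose, and those that fell were 2 without WT mock replicate 1 and 3 without pot1b mock replicate 1 or 2.

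Of 32 tested ethylene genes 11 fell, 5 rose and 16 did not pass the test (median -0.22). Of the rising genes 4 encode synthases of ACC, the precursor of ethylene. ACS7 stood at 5.31, 3.47 and 5.18 CPM in WT mock and at 9.06, 9.84 and 10.6 CPM in pot1b mock, a log2 of 1.02 (SE 0.14), and ACS6, ACS2 and ACS11 rose by 0.80 (SE 0.12), 0.71 (SE 0.16) and 0.69 (SE 0.16). The falling genes included parts of the signalling chain and the oxidases ACO1, ACO3 and ACO4, which make ethylene from ACC, though ACO1 and ACO3 lost their calls under 16 and 5 alternatives, left-out mock libraries among them. EIN2, the membrane protein that carries the signal towards the nucleus, was at 64.0, 64.1 and 65.9 CPM in WT mock and at 45.4, 42.5 and 45.8 CPM in pot1b mock, a log2 of -0.54 (SE 0.07). The kinase CTR1, which holds EIN2 inactive, fell by 0.42 (SE 0.07), and the receptor ERS2 by 0.61 (SE 0.10). The number that fell was 5, 6 and 6 without WT mock replicates 1, 2 and 3 and 4, 6 and 7 without pot1b mock replicates 1, 2 and 3.

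Genes induced by darkness and sugar starvation formed the list with the highest share of falling members in the plot of gene lists. A larger share fell among GH3 genes, a list not drawn there, with 4 of 7 tested. Of 29 tested members of the starvation list 13 fell and none rose, with a median of -0.22, and 6 fell when genes overlapping another were left out. MCCB, a subunit of the carboxylase that breaks down leucine, was at 220.0, 213 and 211 CPM in WT mock and at 135, 122 and 135 CPM in pot1b mock, a log2 of -0.71 (SE 0.08, edgeR adjusted p = 6.8e-07). SEN1, a dark-induced marker of senescence, went from 817, 831 and 761 CPM to 549, 535 and 494 CPM, a log2 of -0.61 (SE 0.10). DIN11, a dark-induced oxygenase, went from 196.8, 190.9 and 192 CPM to 119.5, 106 and 120.5 CPM, a log2 of -0.74 (SE 0.09). None of these genes overlapped between genotypes. ETFQO, which feeds electrons from amino acid breakdown into respiration, and ASN1, an asparagine synthetase, fell by 0.69 (SE 0.07) and 0.64 (SE 0.08), and both overlap another gene.

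**Figure D3:**
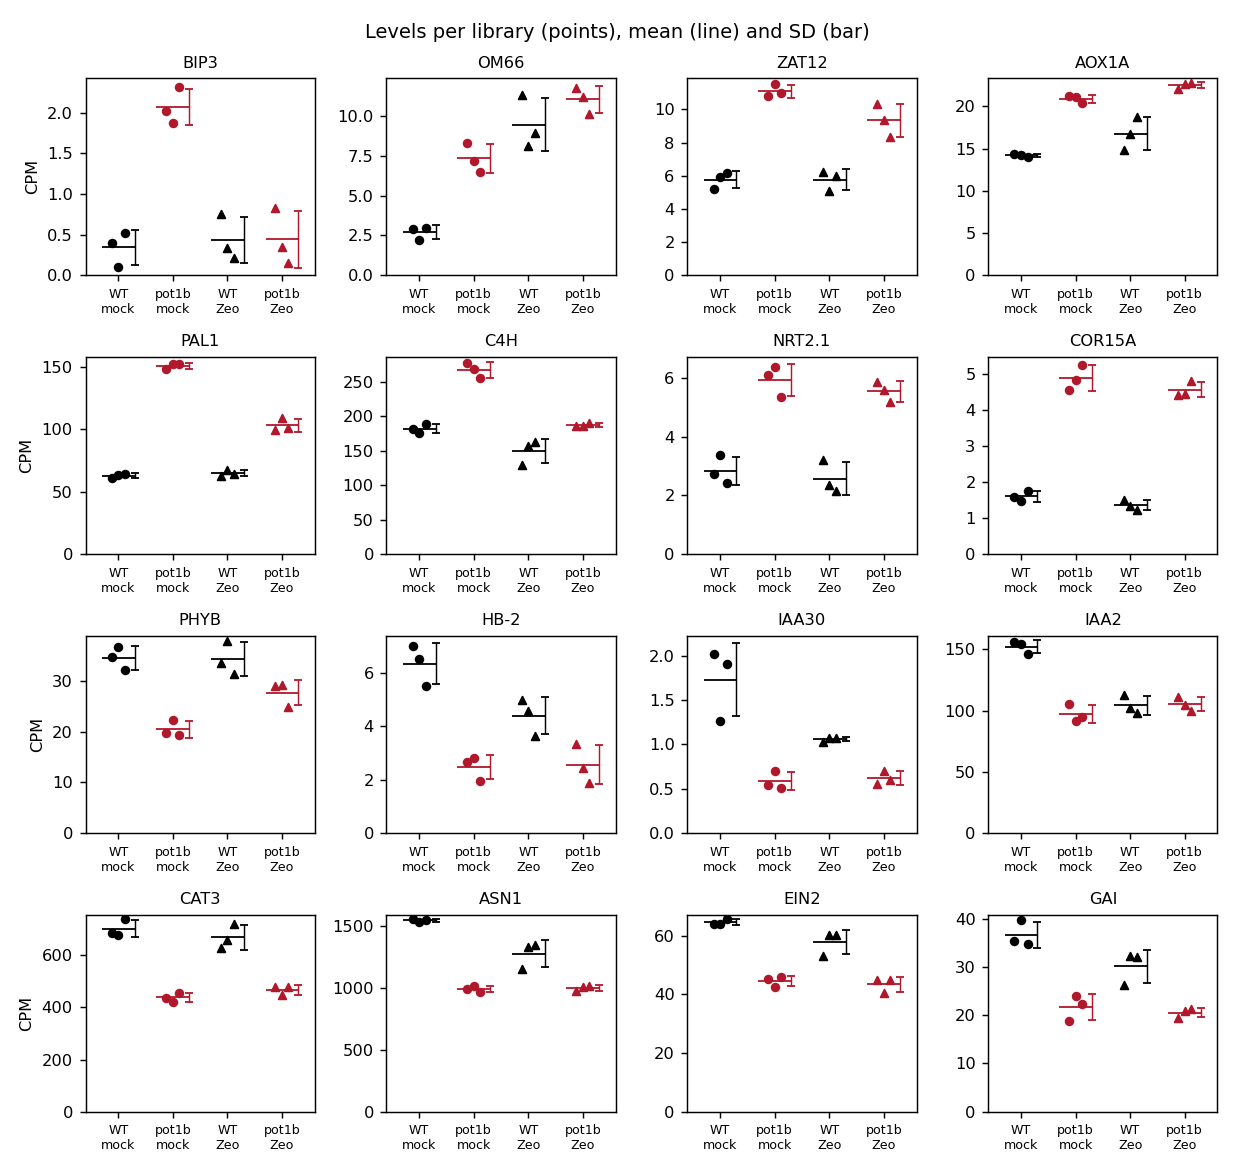
CPM of 16 genes in every library (points for mock, triangles for Zeocin, WT in black and pot1b in red), with the group mean as a line and the SD as a bar, n = 3 per group. In the mock groups the mutant points lie above the WT points for BIP3 to COR15A and below them for PHYB to GAI, and for BIP3, OM66 and IAA2 the Zeocin groups of both genotypes lie close together.

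Of 25 tested telomere genes 3 rose and 1 fell, a share near the 13.1% called over all tested genes. The number that fell was 0 without WT mock replicate 1, WT mock replicate 2 or pot1b mock replicate 3 and 2 without WT Zeocin replicate 2. POT1A, the paralogue of POT1B, was at 3.65, 3.9 and 4.13 CPM in WT mock and at 4.97, 3.83 and 4.19 CPM in pot1b mock, with overlap and a log2 of 0.17 (SE 0.16, edgeR adjusted p = 0.56). TERT, the telomerase protein, was under 1.4 CPM in every mock library, with a log2 of 0.23 (SE 0.36, edgeR adjusted p = 0.76). Of 50 tested genes of the DNA damage response 2 rose and none fell, a share of 4.0% called that lies below the 13.1%. The number that rose was 1 without WT mock replicate 1, pot1b mock replicate 1 or pot1b mock replicate 3. The central damage factor SOG1 was at 7.01, 6.32 and 7.41 CPM in WT mock and at 7.09, 7.57 and 5.42 CPM in pot1b mock, with a log2 of -0.06 (SE 0.14, edgeR adjusted p = 0.85). The damage-induced gene GMI1, which overlaps another gene, rose by 1.23 (SE 0.09).

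No tested gene of the cell division lists rose, against 7.3% of all tested genes. Of 42 S phase genes tested 1 fell (2.4% called), and 2 fell without WT Zeocin replicate 1 or WT Zeocin replicate 3 and 0 without WT mock replicate 1. Of 50 G2/M genes tested 5 fell, with a median of -0.15. POK1, a kinesin that guides the plane of division, fell by 0.80 (SE 0.17). Among 276 ribosomal protein genes 9 rose and 4 fell (4.7% called, also below 13.1%). The ranges over single libraries left out were 2 to 19 and 1 to 14, with both extremes at WT mock replicate 1 and WT Zeocin replicate 1.

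Markers of tissues were examined as a check of seedling make-up. All 54 photosynthesis genes and all 26 stomatal markers were above 0.1 CPM on average, and 2 of 29 root epidermis and hair markers were not, while 15 of 22 pollen and 12 of 21 seed storage genes were below it. The summed level of the stomatal markers was 882.2 to 891.6 CPM in WT mock and 952.6 to 961.9 CPM in pot1b mock. That of phloem and xylem markers was 209.9 to 224.3 CPM and 197.3 to 203.8 CPM, and that of root interior markers 105.8 to 110.8 CPM and 94.56 to 100.4 CPM. That of root epidermis markers was 115.2 to 115.8 CPM and 112.1 to 114.5 CPM, and that of shoot meristem markers overlapped, at 120.8 to 123.9 CPM and 111.6 to 124.5 CPM. These sums do not follow most members in every list. The median log2 of tested stomatal markers was -0.17, with 6 of 23 above 0. For root interior markers the median was 0.09, with 15 of 24 above 0. It was -0.11 for phloem and xylem, -0.11 for root epidermis and -0.05 for shoot meristem markers. Within these lists 1 of 23 stomatal genes rose and 1 fell, 4 of 20 phloem and xylem genes fell (2 without pot1b mock replicate 3), 2 of 24 root interior genes rose and 3 fell (1 without WT mock replicate 1), and 2 of 22 root epidermis genes fell. Called in all were 8.7% of stomatal, 20.0% of phloem and xylem, 20.8% of root interior and 9.1% of root epidermis genes. Over all tested genes the share was 13.1%. The part of seedling make-up in the gene differences was not tested.

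Called genes lay on all chromosomes, at 6.79% to 7.71% rising and 5.64% to 5.91% falling per chromosome. In 385 windows of 50 neighbouring tested genes, 1 to 15 genes were called, with a median of 6, and the window with POT1B held 3. Some neighbours of one family rose together. The longest run, 5 adjacent tested genes that all rose, was that of AZI1, EARLI1, AT4G12490, AT4G12495 and AT4G12500, of which AZI1 and EARLI1 are lipid-transfer-type proteins known from systemic immunity, with log2 values of 0.51 to 2.23, and 3 of the 5 overlap another gene. A run of 4 held the leucine-rich repeat kinase IOS1 with AT1G51790, AT1G51805 and AT1G51820, at 0.50 to 0.86. IOS1 itself was at 93.7 to 102.6 CPM in WT mock and at 156 to 166.5 CPM in pot1b mock. The cyclases AOC1, AOC2 and AOC3 of the jasmonate route form a run of 3, at 0.49 to 1.27, as do the cysteine-rich transmembrane genes AT2G32190, AT2G32200 and AT2G32210, at 1.42 to 1.48. The strictosidine synthase genes AT1G74000 to AT1G74020 form another, at 0.39 to 1.84. AT4G12500 lost its call without WT mock replicate 1 (edgeR adjusted p = 0.0805) or pot1b mock replicate 3 (edgeR adjusted p = 0.0763). AT1G74020 lost its call without WT mock replicate 1, WT mock replicate 2 or pot1b mock replicate 2, with adjusted p-values of 0.0685, 0.0639 and 0.0723 in edgeR. Runs that fell were fewer, with 9 of 3 genes, against 25 of 3, 3 of 4 and 1 of 5 that rose. Reads shared between near-identical neighbours can link their counts, so values within a run are not independent.

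More genes were called where counts were higher. In the lowest of the 5 equal bins of mean level (0.365 to 1.9 CPM) 3.87% rose and 1.68% fell, and in the highest (21.8 CPM and above) 12.2% rose and 14.1% fell. By transcript length, 6.13% rose and 3.63% fell in the shortest of 5 length bins (up to 1083 nt), and 6.4% rose and 9.67% fell in the longest (2520 nt and above), with median log2 values of 0.03 and -0.05. With an offset for length, chosen after seeing the data, 1402 genes rose and 1107 fell.

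**Figure D4:**
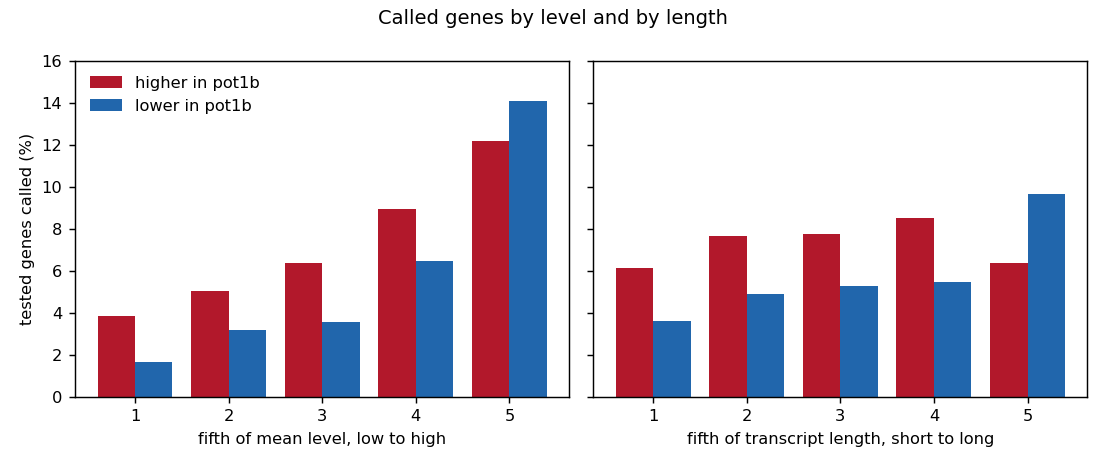
Share of tested genes (%) that rose (red) or fell (blue) in untreated pot1b by bin of mean level (left) and of transcript length (right), numbered 1 to 5 from low to high, with 3875 to 3884 genes in each. The share rises with level in both directions, from 3.87% and 1.68% to 12.2% and 14.1%, and falling genes exceed rising ones in the longest bin, at 9.67% against 6.4%.

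The genotypes were also compared in the Zeocin-treated seedlings. The 2 differences are between separate libraries, but all 12 share one estimate of the spread between replicates. There 1277 genes rose (6.58%) and 883 fell (4.55%). Of the 2540 genes called in untreated seedlings, 2274 had the same sign after Zeocin (89.5%), against 12970 of all 19394 (66.9%), and 1037 were also called with that sign (40.8%), against 1954 of all tested (10.1%). By direction, 90.7% of the rising genes kept their sign and 45.0% were called again, and 88.0% of the falling genes kept their sign and 35.6% were called again. The differences were mostly smaller after Zeocin, in 1120 of the 1416 genes that rose (79.1%) and in 952 of the 1124 that fell (84.7%). These sizes are a description, since the genes were chosen by their values in mock. The interaction, which tests the change in the genotype difference itself, was called for 144 genes (0.742%), of which 101 were among the 2540 (3.98%).

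Single genes show both patterns. The difference of COR15A was 1.58 in mock and 1.75 (edgeR adjusted p = 6.2e-07) after Zeocin, and that of NRT2.1 was 1.11 and 1.13 (edgeR adjusted p = 0.00015). PHO1 was lower by a log2 of -0.68 and -0.72, and the RNA AT3G05955 by -3.06 and -4.07. By contrast OM66 was at 11.3, 8.1 and 8.94 CPM in WT Zeocin and at 11.8, 11.2 and 10.1 CPM in pot1b Zeocin, levels that overlap, and its genotype difference shrank from 1.41 to 0.23 (interaction -1.18, edgeR adjusted p = 0.00643). IAA2 was at 112.5, 101.8 and 98.2 CPM in WT Zeocin and at 111.3, 104.8 and 99.5 CPM in pot1b Zeocin, so that the difference went from -0.64 to 0.01 (interaction 0.66, edgeR adjusted p = 0.00457). BIP3 was below 0.9 CPM in all Zeocin libraries, with a difference of 0.14 (interaction edgeR adjusted p = 0.17, not past the threshold). As lists, ER folding genes had 10 that rose in mock and 3 that fell with none rising after Zeocin, Aux/IAA genes 10 that fell in mock and 1 that fell with 2 rising after it, and jasmonate genes 15 that rose in mock and 15 after Zeocin. Cell wall genes had 23 rising in mock and 13 after Zeocin, and dark and sugar starvation genes 13 falling in mock and 9 after it. These counts between treatments were not tested against each other as lists.

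**Figure D5:**
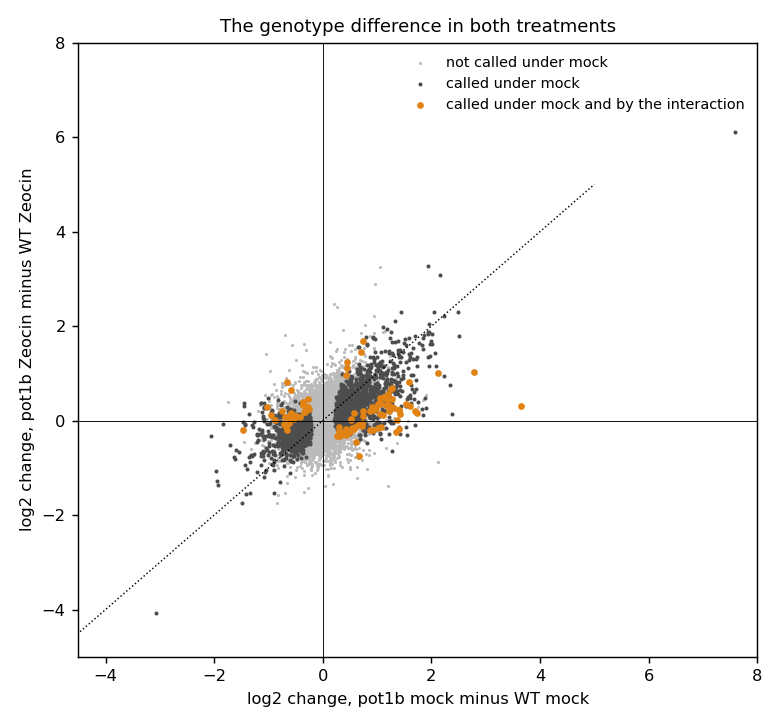
Log2 genotype difference after Zeocin (vertical) against that in mock (horizontal) for the 19394 tested genes, with genes called in mock in dark grey, the 101 also called by the interaction in orange and equality dotted. Dark points lie mostly in the quadrants of equal sign, 2274 of 2540, and most are nearer to 0 on the vertical axis than on the horizontal one.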

How the data were processed

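Per the submitters' processing notes, the authors used Trim Galore, HISAT2, featureCounts, limma and the TAIR10 build, with versions and strand setting not given in the sources used here. The deposited files hold raw read counts per gene for each library, from total RNA libraries made with a stranded, rRNA-depleting kit, per the labels' protocols. Symbols, overlaps, neighbours and promoters come from RefSeq's TAIR10.1 table. Its assembly name differs from that of the counts, so no coordinates were joined to them.

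Tests used edgeR 4.0.16 (R 4.3.3). Its filterByExpr with a minimum count of 10 removed 14666 features and left 19596, nuclear and organellar. TMM scaling and a robust quasi-likelihood fit of the 4 groups to all 12 libraries left 8 degrees of freedom for the residuals. Replicates varied by 11% beyond counting error (common dispersion 0.0121). Its p-values were adjusted by Benjamini-Hochberg across all 19596 features and called under 0.05. Counts were simulated for this comparison over 19596 genes to see how often changes were called. There 95 of 100 genes changed by a log2 of 1 were recovered and 27 of 100 changed by 0.5, with 5 false calls. Depth and spread were not varied apart, so their parts cannot be told apart. The simulation gave every gene the common dispersion, changed only genes with a mean above 1 CPM and drew each library independently. Recovery and false calls in the real libraries may therefore differ. The floor for genes at 0 is 3 counts over a group and covers counting error only.

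Between mock libraries with the same replicate number, residual correlations over 11205 genes were 0.493, 0.111 and 0.567 for replicates 1, 2 and 3. WT mock replicate 2 correlated more with pot1b mock replicate 1, at 0.154. WT Zeocin replicate 2 and pot1b Zeocin replicate 2 had a correlation of -0.036. The numbers thus pair mock replicates 1 and 3 but not clearly replicate 2. Any pairing is read from the data, since the labels do not say what a number marks. The fit without a block is the main one.

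Members and gene lists were chosen with earlier results of these data known. Named genes are the 15 largest changes in each direction with no overlap of libraries and a mean of at least 1 CPM in the higher group, the up to 4 largest called members of each list, POT1B with its neighbours, POT1A, TERT, the most abundant called genes and further genes chosen after their values were seen. Lists with mismatched members were corrected after values were seen, and 144 list entries matched no gene. Genes that overlap another listed gene are called uncertain, since reads from opposite strands may have been pooled. Alternatives covered scaling, filters, DESeq2 1.42.0, limma-voom (limma 3.58.1), the block, left-out libraries and, added after seeing the data, a transcript length offset.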

Additional observations from a re-analysis of the deposited data

Results flagged for a closer look

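Several named genes had a genotype difference that itself differed between mock and Zeocin, by edgeR's interaction test with a Benjamini-Hochberg adjusted p under 0.05. The values below are the Zeocin difference minus the mock difference, on the log2 scale. The explanation for them was not tested.

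Negative values belong to genes that were higher in untreated pot1b and less so, or not, after Zeocin. Among defence genes they were -3.33 for PBS3, -1.76 for AIG1 and -1.05 for CBP60G, and among cysteine-rich receptor-like kinases -0.76 for CRK13, -0.72 for CRK21 and -0.77 for CRK22. Among lipid-transfer-type genes they were -0.82 for EARLI1, -0.74 for AZI1, -1.13 for AT4G12490 and -0.70 for LTP2. Among chaperones they were -1.29 for HSP70, -1.08 for HSP90.1, -0.65 for BIP2, -0.61 for CNX1 and -0.63 for PDIL1-2, the last 3 of the endoplasmic reticulum. The mock calls of these 3 rested on single libraries, with edgeR adjusted p-values of 0.0536 for BIP2, 0.103 for CNX1 and 0.0546 for PDIL1-2 without WT mock replicate 1. They also rested on the processing, since all 3 calls were lost with no scaling beyond totals. CNX1 lost its call under 10 alternatives, DESeq2 and limma-voom among them. Stress markers OM66 and CYP706A2 had -1.18 and -1.20, the phenylpropanoid genes PAL1 and 4CL1 -0.59 and -0.68, the ACC synthase ACS7 -1.19 and the damage-induced GMI1 -1.02.

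Positive values belong to genes that were lower in untreated pot1b and less so, or not, after Zeocin. They were 1.32 for IAA29, 0.78 for IAA4, 0.72 for IAA3, 0.66 for IAA2, 0.56 for GH3.3 and 0.45 for GH3.2, all auxin response genes, and 0.62 for HAT2. They were 0.95 for DIN11, 1.07 for ADH1, 0.89 for the peroxidase AT5G19890 and 1.27 for CYP96A5. ADH1, IAA3, EARLI1, 4CL1, GMI1 and AT4G12490 overlap another gene.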

How the results depend on the processing

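Of 313 named genes 294 were called, and 206 of these kept their call under each of the 26 alternatives that tested them and 253 under those that leave out no library. None reversed. Each left-out mock library cost 32 to 60 calls, most without WT mock replicate 1, and leaving out pot1b replicate 3 in both treatments cost 49. Otherwise no scaling beyond totals cost 31 and DESeq2 25. With no scaling the count of genes that rose was 887. With only the 6 mock libraries fitted the count that fell was 1847, and POT1B had the same log2 of -0.83 with an adjusted p of 0.00867. With a minimum count of 30, 38 genes fell at least 2-fold, as fewer genes were tested. Without pot1b replicate 3 in both treatments the count that fell was 663 and POT1B stood at -1.26. Over single libraries left out, 938 to 1874 genes rose, 645 to 1826 fell, 234 to 283 rose at least 2-fold and 57 to 82 fell at least 2-fold, and POT1B ranged from -1.27 to -0.61. With the replicate block 1732 genes rose and 1505 fell, 276 and 82 at least 2-fold, POT1B was at -0.80, and the calls of AT7SL-1 and MYB74 were lost. The block changed no other named call. The same sign after Zeocin was found for 3379 of 3890 called genes (86.9%) with mock and Zeocin libraries fitted separately. The causes of these shifts were not tested. In the simulation 27 of 100 genes changed by a log2 of 0.5 were recovered, and in the libraries fewer genes were called at low level. The part of depth in this was not tested.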

Other observations

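Smaller groups outside the comparisons above also held named changes in untreated pot1b. Of 17 tested genes of endoplasmic reticulum bodies, the defence compartments of roots and seedlings, 7 rose and 1 fell, and 4 rose without WT mock replicate 3. PYK10, the main beta-glucosidase of these bodies, stood at 400.1, 381 and 384 CPM in WT mock and at 691.7, 677 and 655 CPM in pot1b mock, though it overlaps another gene. JAL22, a lectin of the same system, fell by 0.74 (SE 0.09). Of 30 iron genes 8 rose and 4 fell. Those that rose were 4 without WT mock replicate 1, and those that fell were 2 without WT mock replicate 3 or pot1b mock replicate 1 or 2. IRT1 rose by a log2 of 1.93 to 2.07 over the alternatives and FRO2 by 1.19 to 1.43. FER1, an iron-storing ferritin that overlaps another gene, fell from 301.8, 302 and 310 CPM in WT mock to 169, 158 and 162 CPM in pot1b mock. Of 4 tested metallothioneins none passed the test, though all 4 values were above 0, with a median log2 of 0.35. Of 85 tested small nucleolar RNA genes 1 rose, yet their median log2 was 0.74, against 0.0 over all tested genes. The cause of this upward lean was not tested.

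Regulators of DNA methylation and small RNAs held 4 that fell and none that rose among 44 tested (9.1% called), with a median of -0.18. Over all tested genes 5.8% fell, and 9.67% did so among the longest transcripts. The number that fell was 2 without WT mock replicate 1, WT mock replicate 3 or pot1b mock replicate 3, 1 without pot1b mock replicate 2 and 10 without WT Zeocin replicate 1. DME, a DNA glycosylase that removes methylated cytosine, was the member that fell most, at 35.5, 33.5 and 34.3 CPM in WT mock and 25.5, 23.9 and 23.7 CPM in pot1b mock, a log2 of -0.50 (SE 0.08).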
